A study of Mus musculus with 12 samples.

Results

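Hearts from mouse embryos that inherited a deleted Ddc allele from the father (PatKO) were compared with hearts from embryos that inherited it from the mother (MatKO). These 8 hearts, 4 of each kind, were chosen by their genotype label from the 12 hearts of the series, and the whole hearts were taken at E15.5 (days of embryonic development). Each embryo carried 1 intact and 1 deleted Ddc allele, so the groups share the deletion and differ in the parent that passed it on. In the labels MatKO is Ddc-/+ and PatKO is Ddc+/-, while the other hearts are 3 WT and 1 KO with both alleles deleted. According to the methods, the deleted allele is a gene trap in Ddc on a mixed genetic background and the KO heart is a single embryo of a genotype they call lethal. Which embryos were littermates was not given in the sources used here.

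DOPA decarboxylase, the product of Ddc, makes dopamine from L-DOPA and serotonin from 5-hydroxytryptophan. In mice Ddc is transcribed from more than one first exon, and the transcript that starts at exon 1a is imprinted in the heart, where the paternal copy is read and the maternal copy is largely silent. A deletion on the paternal chromosome therefore removes the copy in use, whereas the same deletion on the maternal chromosome removes the copy that is silent, and the comparison asks what else differs between hearts when Ddc is lost in this way.

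RefSeq places 2 starts of Ddc on the minus strand of chromosome 11 (assembly GRCm38.p6). The 250 bases before each start are shown because the imprinted transcript is told from the other by its first exon. The groups compared differ in the parent that passed on the deletion, and use of either start was not measured. Capitals mark a TATAAA or CCAAT motif, read on either strand.
outer start, chr11:11898145-11898394: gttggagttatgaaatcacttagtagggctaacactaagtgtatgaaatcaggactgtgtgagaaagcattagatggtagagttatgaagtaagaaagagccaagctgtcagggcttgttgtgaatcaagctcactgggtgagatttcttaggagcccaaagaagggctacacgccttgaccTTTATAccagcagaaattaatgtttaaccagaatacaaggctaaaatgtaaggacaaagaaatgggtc
inner start, chr11:11890409-11890658: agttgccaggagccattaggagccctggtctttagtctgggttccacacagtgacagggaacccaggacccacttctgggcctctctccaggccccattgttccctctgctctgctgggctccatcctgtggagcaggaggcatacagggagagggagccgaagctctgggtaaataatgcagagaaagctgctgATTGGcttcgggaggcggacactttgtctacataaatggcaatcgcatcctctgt
The outer window holds TATAAA on the opposite strand, 68 bases before the start, and no CCAAT. The inner window holds CCAAT on the opposite strand, 55 bases before the start, and no TATAAA. Which start belongs to exon 1a was not tested. Either motif is common, with TATAAA in 12.4% and CCAAT in 33.8% of the 32851 mouse windows of this length, so a match describes the letters and not a site. Where the array probes lie on these transcripts is not known from the sources used here.

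Signals came from an Illumina WG-6 array, with 1 array for each heart and values on the log2 scale. The lowest value on the arrays was 4.58 and the highest 15.59, and array medians lay between 5.61 and 5.62. Pairs of arrays correlated at 0.983 to 0.993 over all probes (Pearson). Cardiomyocyte genes were near the top of the scale in every heart, with a list mean of 14.45 to 14.55 in MatKO and 14.55 to 14.69 in PatKO hearts, so the defining genes of the labelled tissue were present. The groups differed in the mix of sexes, since the female transcript Xist was low in MatKO heart 3 (5.99) and in PatKO hearts 1 and 3 (4.75 and 5.13) and 12.57 to 13.52 in the other hearts of these groups. Markers of liver and of blood cells also varied from heart to heart, and their values are given beside the results they move with.

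Ddc was much lower in PatKO hearts at each of its 3 probes, and it was the only gene past the test. At probe ILMN_1229396 the MatKO hearts read 11.23, 10.45, 11.58 and 11.44, and the PatKO hearts read 6.32, 6.34, 6.13 and 5.86. Probe ILMN_1260450 read 13.49, 13.42, 13.99 and 13.92 in MatKO hearts against 10.40, 10.22, 10.39 and 10.44 in PatKO hearts. Probe ILMN_2628647 read 12.97, 13.18, 13.14 and 13.13 against 9.07, 9.15, 9.67 and 9.73. The groups were apart at every probe, by a gap of 4.11, 2.97 and 3.24 between the nearest hearts. PatKO minus MatKO was -5.02 (standard error 0.30), -3.34 (0.15) and -3.70 (0.15) on the log2 scale, with adjusted p of 5.97e-05, 3.98e-06 and 3.68e-06 in limma. An exact permutation test of each probe gave a two-sided p of 0.0286, the smallest that the 70 splits of 8 hearts can give.

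**Figure D1:**
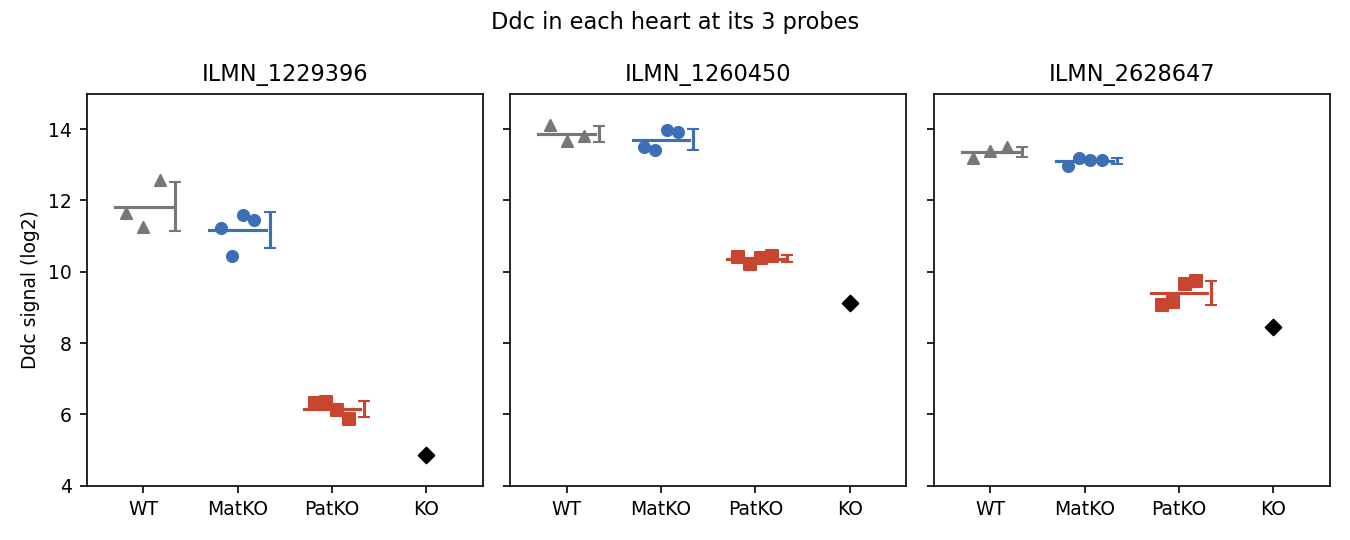
Log2 signal of Ddc in each of the 12 hearts at its 3 probes, by genotype. Points are hearts, horizontal lines are group means and bars are the SD; PatKO hearts lie between 5.86 and 6.34, 10.22 and 10.44, and 9.07 and 9.73, below every MatKO and WT heart and above the KO heart.

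The signal that remained in PatKO hearts was 3.09%, 9.88% and 7.70% of the MatKO signal at these probes, and it stood above the KO heart. With 100 added to the linear signals the first probe differed by -3.82 in place of -5.02, so the share there depends on how low signals are treated. The KO heart read 4.86 at that probe, near the lowest array value, where only a lower bound of its distance from PatKO can be had. It read 9.12 and 8.45 at the others, 1.24 and 0.96 below the PatKO means. At 2 of the probes the KO heart, with no intact allele, was still far above the lowest array value, so the percentages there include signal that does not depend on an intact allele. MatKO means lay 0.65, 0.16 and 0.26 below the WT means.

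Away from Ddc no gene passed the test. Of 45267 probes, 3 passed an adjusted p of 0.05 (0.00663%), all of them Ddc probes. The study's own criterion, an unadjusted p under 0.01 with a log2 difference beyond 0.4, held for 283 probes higher in PatKO hearts (0.625%) and for 344 lower (0.760%). At 975 probes every PatKO heart was above every MatKO heart (2.15%), and at 1174 every PatKO heart was below (2.59%). For the rest of the text each gene is read at its brightest probe, which gives 19056 genes, of which 48.7% were higher in PatKO hearts, with a median difference of -0.01. An unadjusted p under 0.05 was found for 4.00% of these genes with a higher and for 4.63% with a lower mean in PatKO hearts. The hearts did not overlap for 2.60% (higher) and 3.11% (lower). Among the 9298 genes with a mean of 7 or more, Ddc included, they did not overlap for 3.53% (higher) and 4.33% (lower). These shares are the background of the list counts below. Absence of overlap there refers to the brightest probe, and other probes of some of these genes overlapped. Every gene below other than Ddc missed the adjusted threshold, so the values describe these 8 hearts. The gene lists were drawn up with earlier results of these data known. Some of their members, such as Ckmt2, Casq2 and Klf9, stand in the study's own table of these arrays. The counts and medians of the lists are therefore descriptions and not tests. Some of the genes given below were dim, with a mean under 7, among them Kcnj3, Nebl, Acan, Col11a2, Fgfr3, Nr1d1, Notum, Unc5c, Lrp2, Lcn2, Nnat, Fgb, Hnf4a and Myh11.

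The largest differences were ranked among genes with a mean of 7 or more that passed the study's criterion and had ranges that did not overlap. Among the 12 with the largest positive differences of this kind (PatKO minus MatKO) were a coat protein of lipid droplets (Plin4), neutrophil stefins (Stfa1 and Cstdc4) and red cell genes of haem and iron (Alas2 and Slc25a37). Ube2l6, an enzyme that attaches the ubiquitin-like protein ISG15, was among them, as were Ddo (D-aspartate oxidase), Adhfe1, a mitochondrial transhydrogenase, and Scara5, a receptor for ferritin. Kctd6, an adaptor of a ubiquitin ligase, Cd300lg, a receptor of capillary endothelium, and the unannotated transcript Gm26588 completed them. The 12 with the largest negative differences, chosen likewise, held matrix genes of cartilage type (Col2a1, Col9a2 and Hapln1), the embryonic globin Hbb-y, the slow skeletal troponin Tnnt1 and Lrrn4, which marks mesothelium. Pilra, an inhibitory receptor of myeloid cells, the transfer RNA deaminase subunit Adat2, the zinc finger protein Sall3, the carboxypeptidase-like protein Cpxm1, Cemip, which degrades hyaluronan, and Moxd1, a relative of dopamine beta-hydroxylase, were the others.

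Plin4 read 7.42, 7.54, 7.31 and 7.71 in MatKO hearts and 8.80, 9.97, 10.47 and 10.16 in PatKO hearts. Each PatKO heart was at least 1.09 above the highest MatKO heart, and the difference was 2.36 (standard error 0.59, limma adjusted p = 0.448). The WT hearts read 7.38, 10.15 and 10.47 and the KO heart 7.55. WT heart 1 and the KO heart thus lay with MatKO, and WT hearts 2 and 3 with PatKO. Its neighbour in the family, Plin5, which ties lipid droplets to mitochondria, read 6.71, 6.48, 6.10 and 6.45 in MatKO, 7.85, 7.55, 8.65 and 8.43 in PatKO, 5.59, 8.88 and 8.73 in WT and 6.39 in KO. The hearts fell on the same sides as for Plin4. Another Plin5 probe sat near the lowest array value and differed by -0.05.

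Col2a1, the main collagen of cartilage, read 8.77, 8.67, 8.31 and 8.43 in MatKO hearts and 7.05, 7.48, 6.05 and 6.96 in PatKO hearts. The nearest hearts were 0.83 apart, the difference was -1.66 (standard error 0.36, limma adjusted p = 0.368), and the 2 other Col2a1 probes differed by -1.44 and -1.18 without overlap. The KO heart, at 8.43, read as a MatKO heart, while WT heart 3 read 6.13. Pilra read 9.01, 9.24, 8.65 and 8.75 in MatKO and 8.01, 7.19, 7.37 and 7.83 in PatKO hearts. Its difference of -1.31 (standard error 0.21) had an adjusted p of 0.192 in limma, shared with Flrt3 and Slc25a42 below, and its other probes gave -0.62 and -0.34.

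Ddo, which breaks down D-aspartate, had the same direction at all its probes. It read 10.02, 9.70, 10.74 and 9.86 in MatKO and 11.06, 11.31, 11.47 and 10.99 in PatKO hearts, a difference of 1.13 (standard error 0.25, limma adjusted p = 0.425). Its other probes differed by 0.69, 2.17 and 0.96, each without overlap. Moxd1 read 9.55, 9.31, 9.45 and 9.02 in MatKO and 8.47, 8.31, 8.47 and 8.45 in PatKO hearts, with a difference of -0.91 (standard error 0.17) and -0.77 at its other probe. Zfp367, a zinc finger protein, read 10.85, 10.66, 10.62 and 10.83 against 9.88, 9.81, 9.99 and 9.95, so the PatKO hearts lay closely together and 0.63 below the others. The other Zfp367 probes gave 0.66 and 0.06, opposite in sign to the brightest. Panx1, a channel of the cell membrane, differed by -0.86 and by -0.39 and -0.09 at its other probes, and the ubiquitin ligase Mkrn1 by 0.96 and by 0.72 and 0.09.

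**Figure D2:**
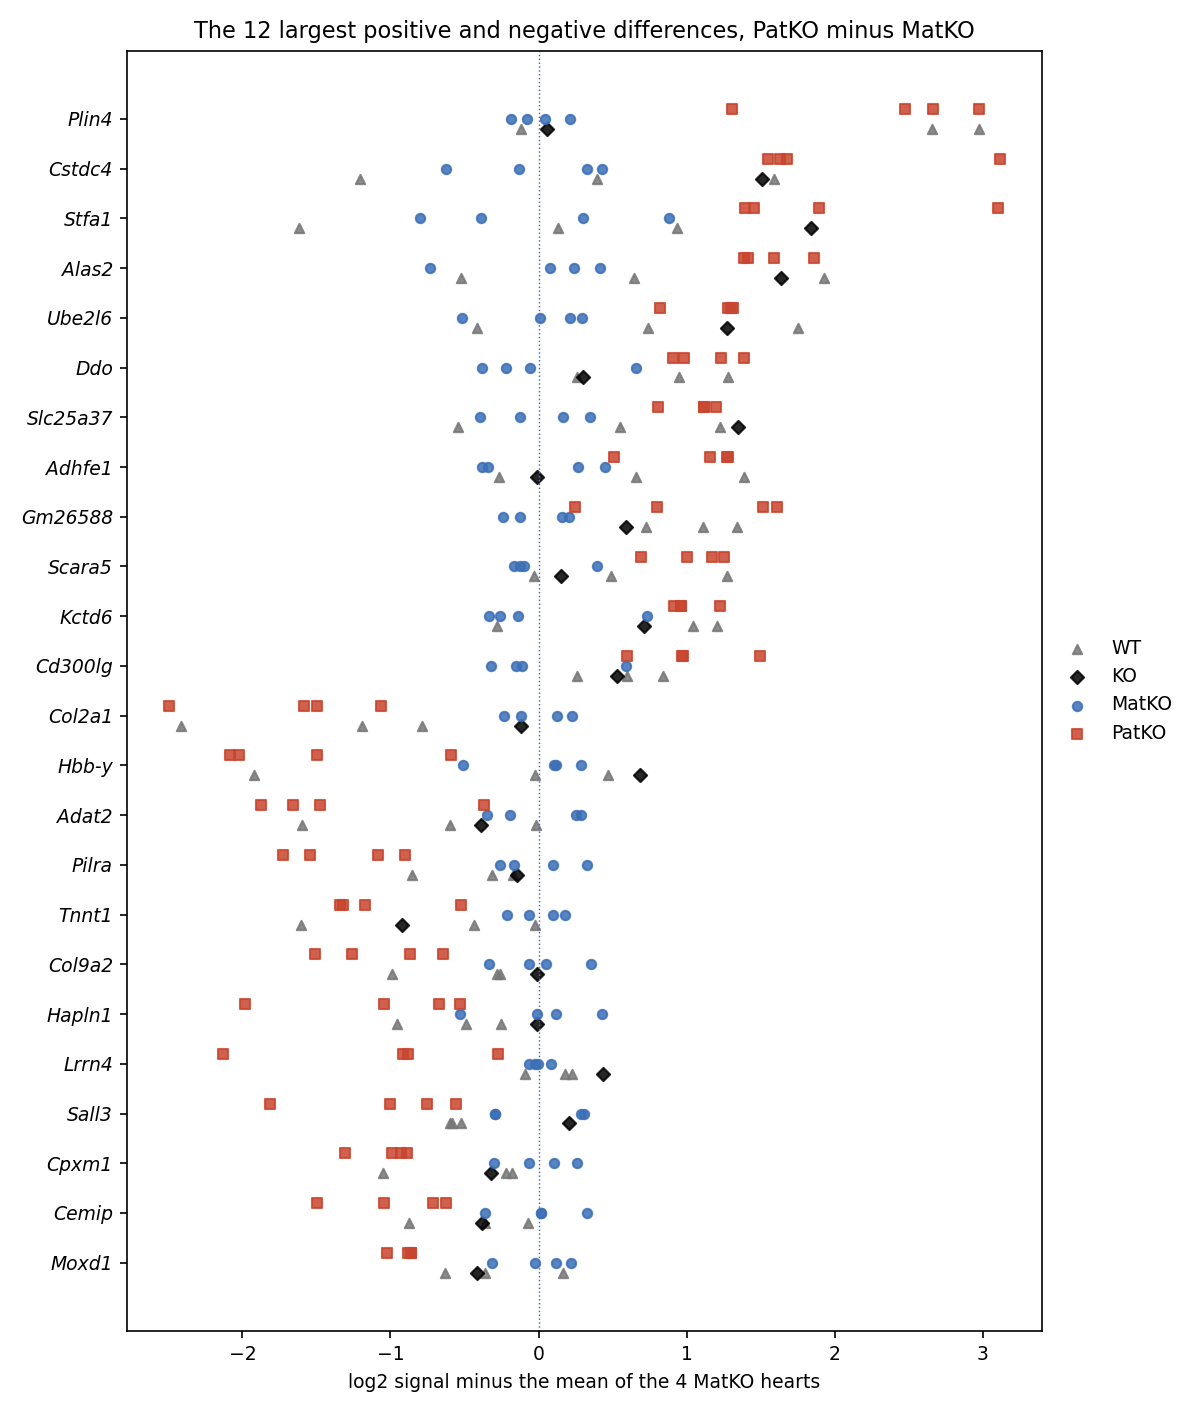
Log2 signal of each heart minus the mean of the 4 MatKO hearts (horizontal axis) for the 12 genes with the largest positive and the 12 with the largest negative differences (rows), at the brightest probe. Squares are PatKO, circles MatKO, triangles WT and diamonds KO; for Plin4 the PatKO hearts lie between 8.80 and 10.47 in signal and the KO heart, at 7.55, lies with MatKO.

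Of the 24 genes, 6 (Ddo, Pilra, Col9a2, Cpxm1, Cemip and Moxd1) stayed past the study's criterion in every alternative fit. With the liver list mean as a covariate 12 of the 24 stayed past it, and with the red cell mean 8. The 24 were picked for their size, so their standing apart from MatKO hearts is how they were found and not evidence about them.

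Genes of the maturing heart muscle were higher in PatKO hearts as a list, whose members were chosen with earlier results of these data known. Of 28 genes that rise as a mouse heart matures, 24 were higher, with a median of 0.33 against -0.01 over all genes. Of the 28, 12 had an unadjusted p under 0.05 and 9 did not overlap between the groups. Over all genes 4.00% were higher at that p, and 2.60% lay above without overlap (3.53% at a mean of 7 or more). Slc25a42, which carries coenzyme A into mitochondria, read 8.17, 8.05, 8.01 and 8.37 in MatKO and 8.72, 9.19, 8.84 and 8.72 in PatKO hearts (difference 0.72, standard error 0.12, limma adjusted p = 0.192). Ryr2, the calcium release channel of the sarcoplasmic reticulum, read 13.38, 13.46, 13.67 and 13.37 against 13.76, 13.90, 13.77 and 13.89. The groups did not overlap for these genes, and for Slc25a42 the WT hearts (8.25, 8.15 and 8.34) lay with MatKO. Ankrd23, a stretch-responsive protein of the sarcomere, differed by 0.76 and Ppargc1a, a coactivator that drives the making of mitochondria, by 0.55. Ckm, Hadha, Acadm, Casq2 and S100a1, described below, were the rest of the 9. The mean over the list was 12.17, 12.21, 12.24 and 12.20 in MatKO hearts and 12.32, 12.58, 12.60 and 12.60 in PatKO hearts, so PatKO heart 1 stood nearer to MatKO than the others of its group. The KO heart (12.25) and WT heart 1 (12.19) were near the MatKO level and WT hearts 2 and 3 (12.63 and 12.64) at the PatKO level.

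The counterpart, 25 genes that decline with maturation, ran the other way. This list joins regulators of fetal growth with contractile genes such as Tnnt1. Of these 4 were higher and 21 lower in PatKO hearts, with a median of -0.23, 6 lower at an unadjusted p under 0.05 and 4 below without overlap (Cdkn1c, Mdk, Ptn and Tnnt1). Without MatKO heart 1 or PatKO heart 4 the median was -0.15. Ptn and Mdk, the growth factors pleiotrophin and midkine, differed by -0.47 (standard error 0.10) and -0.68 (standard error 0.18). Mdk read 13.97, 14.11, 14.07 and 13.96 in MatKO and 13.75, 13.26, 13.04 and 13.35 in PatKO hearts. Cdkn1c, an imprinted inhibitor of the cell cycle, read 14.85, 14.96, 14.74 and 14.48 against 14.31, 14.15, 14.10 and 14.48, where the nearest hearts are equal at 2 decimals. Tnnt1 differed by -1.09 and the glypican Gpc3 by -0.30, the latter with overlap.

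Energy metabolism leaned upward in PatKO hearts with small differences. For fatty acid uptake and oxidation 37 of 43 genes were higher, with a median of 0.17, 9 at an unadjusted p under 0.05 and 8 without overlap. Acot11, which splits fatty acyl-CoA, read 10.12, 10.10, 9.77 and 9.72 in MatKO and 10.46, 10.85, 11.15 and 10.92 in PatKO hearts. That is a difference of 0.92 (standard error 0.23) with no overlap. Hadha of the mitochondrial trifunctional protein differed by 0.51, the fatty acid transporter Slc27a1 by 0.49 (with overlap) and the medium-chain dehydrogenase Acadm by 0.32. The carnitine carrier Slc25a20 (0.13), the thiolase Acaa2 (0.33), the electron carrier Etfa (0.20) and lipoprotein lipase (Lpl, 0.26) made up, with Ppargc1a, the rest of those without overlap. Another Lpl probe, dim, differed by -0.25 with overlap. Other probes of Etfa (0.25 and 0.20), Acaa2 (0.37, 0.25 and 0.34) and Slc25a20 (0.07 and 0.01) overlapped too. In the storage of triglyceride and lipid droplets 24 of 32 were higher (median 0.15, and 0.23 without PatKO heart 1), 6 without overlap, led by Plin4 and Plin5. Dgat2, which makes the last bond of triglyceride, differed by 0.97 and Mgll, which frees the last fatty acid, by 0.92, both without overlap, as did the desaturase Scd1, by 0.74. Lpin2, a phosphatidate phosphatase, differed by -0.39 at its brightest probe. At other Lpin2 probes, all dim, the differences were -0.17, 0.24 and 0.25, so its direction varied between probes.

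The respiratory chain and citric acid cycle had 33 of 45 genes higher (median 0.15), with 8 at an unadjusted p under 0.05 and 3 without overlap. Pdhb, a subunit of pyruvate dehydrogenase, read 12.73, 12.51, 13.52 and 12.87 in MatKO and 13.63, 13.73, 13.93 and 13.94 in PatKO hearts (difference 0.90). Ndufa5 of complex I differed by 0.20, citrate synthase (Cs) by 0.24 and Cox8b of complex IV by 0.38. For the creatine kinase shuttle 10 of 14 were higher (median 0.20). The mitochondrial creatine kinase Ckmt2 read 11.26, 11.25, 11.43 and 11.30 in MatKO but 11.33, 12.83, 12.87 and 12.58 in PatKO hearts, so that PatKO heart 1 was at the MatKO level and the ranges overlapped. Muscle creatine kinase (Ckm) and the creatine transporter Slc6a8 did not overlap, with differences of 0.37 and 0.31. Genes of glucose transport and glycolysis were divided, with 16 of 29 higher and a median of 0.06. Ldhb, the lactate dehydrogenase of the heart, was higher by 0.59 (standard error 0.12) and Egln3, an oxygen sensor, by 0.74, both without overlap. The glucose transporters Slc2a3 and Slc2a1 differed by -0.50 and -0.30, the former without overlap.

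Contractile genes were mixed. Of 33 sarcomere and Z-disc genes 19 were higher (median 0.03), 3 were above and 3 below without overlap. Mypn, a protein of the Z-disc, read 8.10, 7.97, 8.47 and 8.71 in MatKO and 9.15, 9.27, 9.08 and 8.93 in PatKO hearts (difference 0.79, standard error 0.16). Beside it Ankrd23 and the slow myosin Myh7 (0.22) were above. Other Myh7 probes differed by 0.24 and 0.28 with overlap. Pdlim3 and Nebl, also of the Z-disc, differed by -0.45 and -0.42 and with Tnnt1 were below. Another Nebl probe, also dim, differed by 0.20, and another Pdlim3 probe by -0.48, both with overlap. The atrial myosin light chain Myl7 differed by -0.58 with overlap. In calcium handling and ion channels 22 of 31 were higher (median 0.09) and 5 did not overlap. Besides Ryr2 these included the calcium store protein Casq2 (0.48), the calcium sensor S100a1 (0.51), the junctional protein gene Asph (0.28) and the atrial potassium channel Kcnj3 (0.65). For Asph the gap was 0.01, and its other 13 probes overlapped and differed by between -0.35 and 0.19.

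Targets of glucocorticoids were also higher as a list, chosen with the same knowledge. In the glucocorticoid list 20 of 28 genes were higher in PatKO hearts, with a median of 0.17, 7 at an unadjusted p under 0.05 and 8 without overlap. Klf9, a transcription factor that glucocorticoids induce, read 10.31, 10.56, 10.66 and 10.49 in MatKO and 10.87, 11.22, 11.39 and 11.36 in PatKO hearts (difference 0.70, standard error 0.18). Plin4 and the clock genes Per1 and Per2 are also on this list, and Sult1a1, a sulfotransferase of phenols, differed by 0.55. The kinase Sgk1 (0.36), the metallothionein Mt1 (0.35), the receptor inhibitor Errfi1 (0.25) and lipocalin 2 (Lcn2, 0.90) were also above without overlap. Without MatKO heart 2 the median was 0.06. The list mean was 9.33, 9.26, 9.47 and 9.37 in MatKO and 9.59, 9.69, 9.64 and 9.64 in PatKO hearts. The KO heart (9.43) and WT heart 1 (9.32) were within the MatKO range and WT hearts 2 and 3 (9.87 and 9.69) were at the top of the PatKO range or above it.

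Clock genes were divided. Of 23 genes of the circadian clock 12 were higher and 11 lower (median 0.08), 7 of the former at an unadjusted p under 0.05 and 4 without overlap. Per2, a repressor of the clock, read 10.97, 10.73 and 10.80 in MatKO hearts 1, 3 and 4, more in MatKO heart 2, and 11.13, 11.42, 11.52 and 11.60 in PatKO hearts, with 0.13 between MatKO heart 2 and the lowest PatKO heart. Its relative Per1 read 10.78, 10.85, 11.07 and 10.75 against 11.49, 11.36, 11.05 and 11.33, with overlap in a single pair of hearts. Noct, a rhythmic phosphatase, differed by 0.65 and the nuclear receptor Rora by 0.43, both without overlap. Npas2 (0.37) was near the lowest array value in every heart, and the repressor Nr1d1 was below without overlap (-0.43). The hour at which each litter was taken was not given in the sources used here, and its part in these values was not tested.

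**Figure D3:**
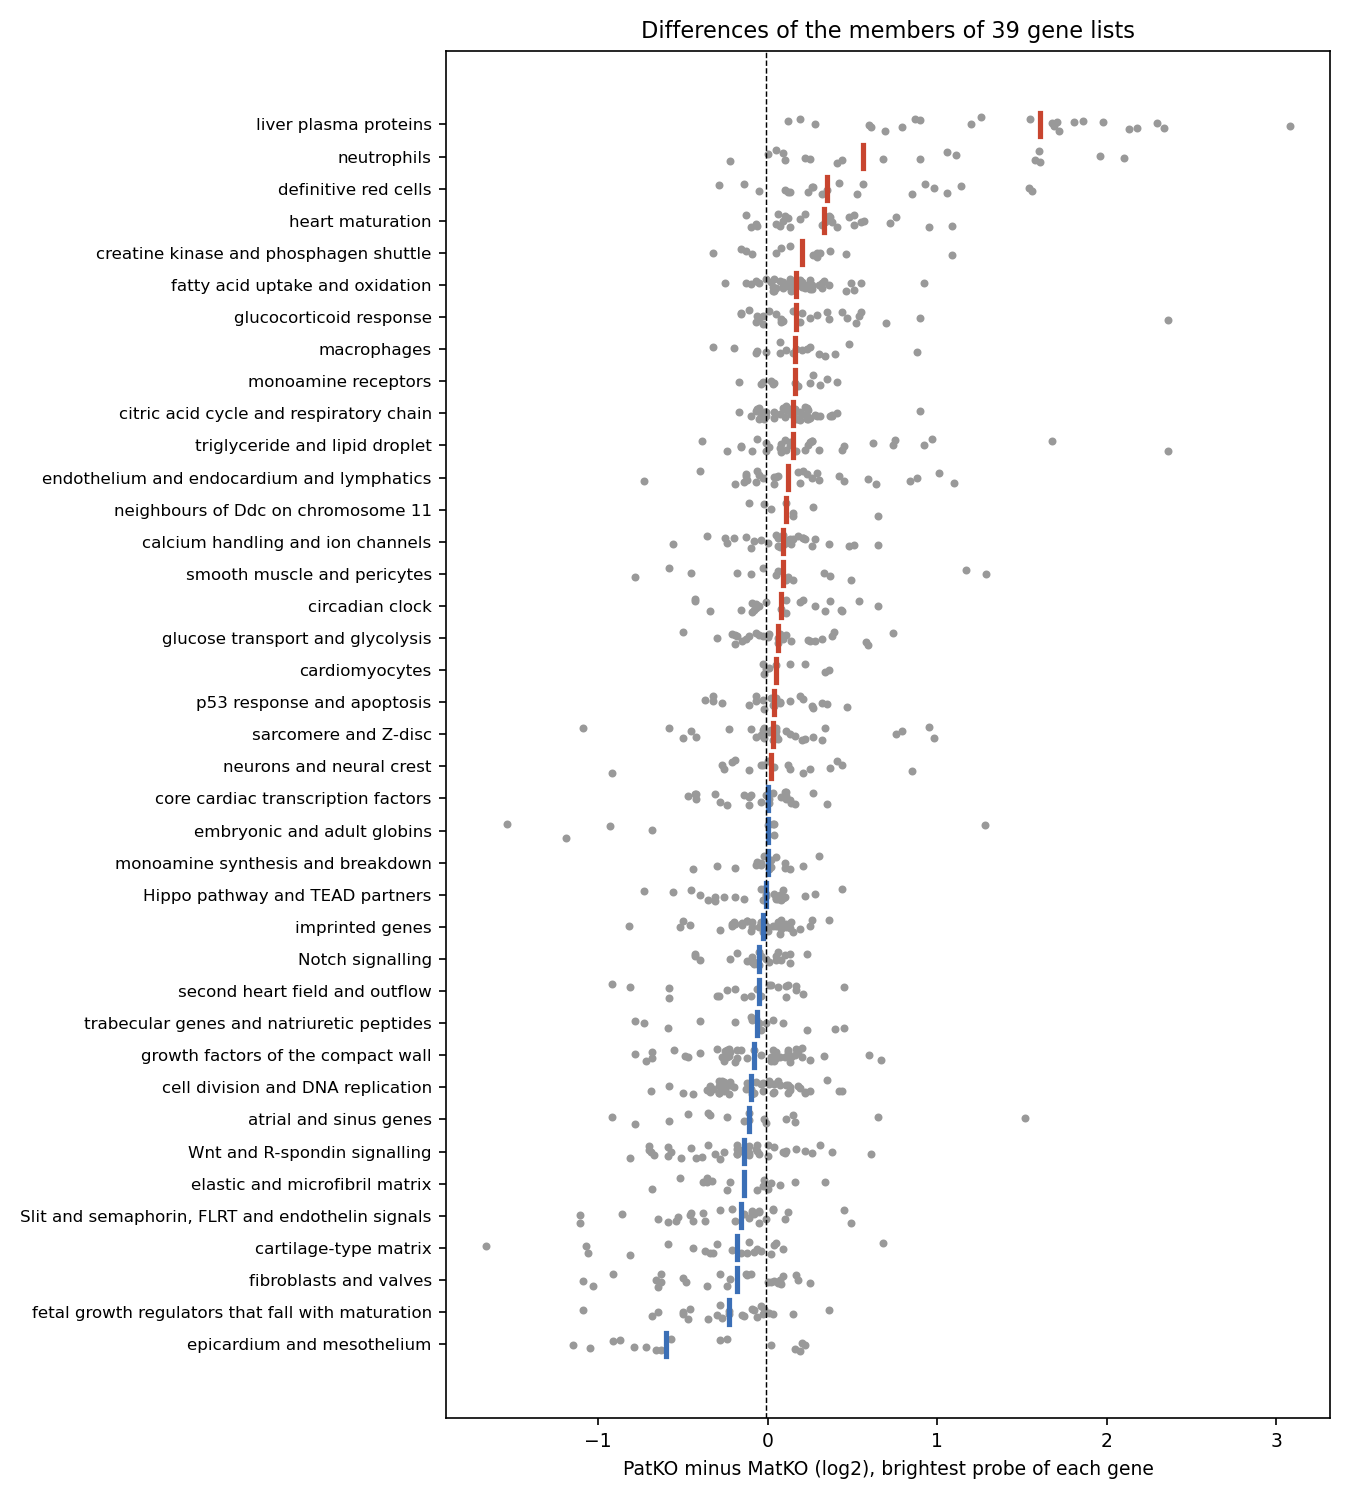
PatKO minus MatKO difference (log2, horizontal axis) of every measured member of 39 gene lists (rows), Ddc left out of the points. Grey points are genes, coloured bars are list medians and the dashed line is the median of all 19056 genes at -0.01; the medians run from 1.61 for liver plasma proteins to -0.60 for epicardium and mesothelium.

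Signals between cells were lower in PatKO hearts in several families. Of 46 genes of Wnt and R-spondin signalling 36 were lower, with a median of -0.14, 12 at an unadjusted p under 0.05 and 9 without overlap. The ligand Wnt5a read 10.92, 10.61, 10.56 and 10.80 in MatKO and 10.13, 10.24, 9.53 and 9.76 in PatKO hearts (difference -0.81, standard error 0.17). The KO heart, at 10.94, read as the highest MatKO heart, and the WT hearts, at 10.23, 9.80 and 10.06, as PatKO. The secreted Wnt antagonist Sfrp1 differed by -0.51, and Nkd1, which dampens the Wnt response inside cells, by -0.42. Axin2 and Notum, which Wnt signalling itself induces and which restrain it, differed by -0.59 and -0.70, the ligand Rspo3 by -0.70 and the receptor Fzd2 by -0.57. Other Notum probes, near the lowest array value, differed by -0.03 and 0.12 with overlap. Wnt4 and Wnt16, at -0.67 and -0.69, were dim, with array means under 7.

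Guidance and endothelin signals showed the same lean, with 24 of 30 lower, a median of -0.16, 11 at an unadjusted p under 0.05 and 6 without overlap. Flrt3, an adhesion protein that binds guidance receptors, had the smallest p after Ddc among genes with a mean of 7 or more. It read 11.73, 11.76, 11.54 and 11.73 in MatKO and 11.25, 10.87, 10.99 and 11.04 in PatKO hearts (difference -0.65, standard error 0.10, limma adjusted p = 0.192). The related Flrt2 differed by -0.54, the endothelin receptor Ednrb by -0.46, the netrin receptor Unc5c by -1.11 and the ligand Slit2 by -0.59. In the last of these the ranges overlapped. Sema5a (-0.86) and the endothelin-converting enzyme Ece1 (-0.45) completed the 6, and the semaphorin receptor Nrp2 was above (0.49). Other Nrp2 probes differed by between -0.27 and 0.13, all with overlap. Other Sema5a probes differed by -0.97 without overlap or by -0.13 with overlap, and Ece1 by -0.47 with overlap. Of 47 growth factors and receptors of the compact wall 25 were lower (median -0.08) and 7 were below without overlap. Beside Ptn and Mdk these included Igfbp3 (-0.68), a carrier of insulin-like growth factors, Igfbp4 (-0.26), Fgfr3 (-0.30), Tgfb2 (-0.22) and Bmp10 (-0.78). The insulin receptor Insr (0.33) and Vegfa (0.25) were above.

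Regulators of cell division were slightly lower. Of 55 genes 34 were lower in PatKO hearts, with a median of -0.10 (-0.17 without PatKO heart 1), 9 at an unadjusted p under 0.05 and 8 without overlap. Mcm3, part of the helicase that opens DNA for replication, read 9.97, 9.83, 9.40 and 9.88 in MatKO and 9.15, 9.03, 9.08 and 9.04 in PatKO hearts (difference -0.69, standard error 0.18). The kinase Cdk4 read 13.27, 13.20, 13.15 and 13.26 against 13.01, 12.65, 12.83 and 12.97. The cyclins Ccne1 and Ccnd3 differed by -0.44 and -0.29. None of these overlapped, nor did Cdc6, Orc6 and Rfc3 of DNA replication (-0.34, -0.22 and -0.29), nor Cdkn1c, while E2f2 was above (0.42). Other Cdc6 probes, dim, differed by 0.08, 0.06 and -0.10, and another Cdk4 probe by -0.24, all with overlap. Other Ccnd3 probes gave -0.28 and -0.33, also with overlap. Those of E2f2 gave 0.40 without overlap and -0.14 with overlap. The mean of the whole list overlapped, at 10.53 to 10.62 in MatKO and 10.42 to 10.58 in PatKO hearts. In the Hippo list, which controls organ growth, 15 of 28 were lower (median -0.01), with Vgll4 at -0.56 and Yap1 at -0.35. Of 24 genes of the p53 response 15 were higher (median 0.04), with Sesn1 (0.47) and the death receptor Fas (0.26) above without overlap. Other Fas probes differed by -0.08, -0.08 and 0.24, and another Sesn1 probe by 0.29, all with overlap.

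Most but not all markers of the epicardium and mesothelium, the layer of cells that covers the heart, were lower in PatKO hearts. Of 16 genes 11 were lower, with a median of -0.60, 10 at an unadjusted p under 0.05 and 7 without overlap. The 5 other genes of the list were higher by 0.22 or less, 0 of them at an unadjusted p under 0.05. Tcf21, a transcription factor of the epicardium and its fibroblast descendants, read 11.15, 11.19, 11.36 and 10.89 in MatKO and 10.34, 10.56, 10.38 and 10.68 in PatKO hearts (difference -0.66, standard error 0.14). Upk1b, a surface protein of mesothelium, read 9.87, 9.48, 9.70 and 9.48 against 8.74, 9.04, 8.22 and 9.36. The others without overlap were Upk3b (-0.72), Lrrn4 (-1.05), Bnc1 (-0.87), Dpp4 (-0.63) and the endocytic receptor Lrp2 (-1.15). The list mean was 7.83 to 8.07 in MatKO and 7.19 to 7.71 in PatKO hearts, lowest in PatKO heart 3, and the WT hearts (7.75 to 8.02) and the KO heart (7.94) stood above PatKO. In whole hearts, fewer cells of a type and less RNA for each cell cannot be told apart.

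Fibroblasts and valves, and the matrix they make, followed. For fibroblast and valve genes 17 of 26 were lower (median -0.18, and -0.11 without PatKO heart 3), 9 at an unadjusted p under 0.05 and 6 without overlap. Cpxm1 read 8.97, 8.64, 8.81 and 8.41 in MatKO and 7.78, 7.72, 7.40 and 7.82 in PatKO hearts, and Spon1, a matrix protein, differed by -0.65. Moxd1, Tcf21, the hyaluronan synthase Has2 (-0.63) and the collagen Col5a2 (-0.28) were the others without overlap. Of 22 genes of cartilage-type matrix 17 were lower (median -0.18, and -0.27 without MatKO heart 4) and 4 were below without overlap (Col2a1, Col9a2, Hapln1 and Acan, at -0.37), while Col11a2 was above (0.68). Col9a2 read 9.56, 9.29, 9.98 and 9.68 in MatKO and 8.98, 8.76, 8.12 and 8.37 in PatKO hearts (difference -1.07, standard error 0.23). Among 16 genes of elastic fibres and microfibrils 12 were lower, with a median of -0.14 (-0.23 without PatKO heart 2), Mfap2 at -0.52 (standard error 0.11) and Mfap4 at -0.68 (standard error 0.16), each without overlap, as was Emilin1 at -0.33.

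Vessel genes were divided. Of 30 genes of endothelium, endocardium and lymphatics 19 were higher (median 0.12, between 0.04 without MatKO heart 4 and 0.20 without PatKO heart 1), 5 of them without overlap. Nostrin, which moves the nitric oxide synthase of endothelium, read 9.24, 9.45, 9.30 and 9.33 in MatKO and 10.01, 10.22, 10.39 and 10.08 in PatKO hearts (difference 0.84, standard error 0.21). Lyve1, a hyaluronan receptor of lymphatic vessels and some macrophages, read 9.77, 9.66, 9.74 and 9.83 against 10.23, 10.95, 10.80 and 10.56. For both genes the PatKO hearts were well clear of MatKO, WT hearts 2 and 3 were within the PatKO range and WT heart 1 was not. The natriuretic peptide receptor Npr3, of the endocardium, differed by -0.73 without overlap, and Plvap, of the diaphragms of vessel walls, by -0.40. Cd300lg, the transcription factor Meox2 (0.59) and the collagen Col15a1 (0.64) were the others above. Smooth muscle genes gave 10 of 16 higher (median 0.09), with Mylk, the kinase of the myosin light chain, at 0.49, and Myh11 (1.29) and Smtn (0.37) above without overlap. Tagln, also a gene of contraction, was dim and below without overlap (-0.78), as was the adhesion protein Mcam (-0.18).

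Red cell genes differed in both directions. Hbb-y, the beta-like globin of the embryo, read 14.73, 14.90, 14.10 and 14.72 in MatKO and 14.02, 12.59, 12.53 and 13.12 in PatKO hearts, a difference of -1.54 with a gap of 0.08. The other embryonic globins Hba-x and Hbb-bh1 differed by -0.93 and -1.19, with gaps of 0.03 and 0.01. Hbq1a, the theta globin, was higher instead and read 6.16, 6.58, 6.90 and 6.78 against 7.58, 7.85, 7.78 and 8.33. Of the adult globins, Hbb-b2 differed by -0.68 with overlap (between -1.47 without MatKO heart 2 and -0.12 without MatKO heart 4), Hbb-bs and Hbb-bt by 0.04 each. For the embryonic globins the KO heart was highest of all 12 hearts (15.30 for Hbb-y) and WT heart 3 lay with PatKO (12.69). Of 21 genes of definitive red cells 18 were higher in PatKO hearts, with a median of 0.35 and 4 without overlap (Alas2, Slc25a37, Fech at 0.85 and Ank1 at 0.42). Alas2, which starts the making of haem in red cells, read 12.19, 11.38, 12.53 and 12.35 in MatKO and 13.53, 13.97, 13.50 and 13.70 in PatKO hearts (difference 1.56, standard error 0.43), and the WT hearts (11.59, 12.76 and 14.04) covered both ranges. The red cell list mean was 8.21, 7.92, 8.37 and 8.26 in MatKO and 8.93, 8.70, 8.31 and 8.88 in PatKO hearts, and the part of blood content in these values was not tested.

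Neutrophil genes were higher as well, 16 of 18 with a median of 0.56 and 5 without overlap (S100a8, S100a9, Stfa1, Lcn2 and Ltf, at 1.60). Without PatKO heart 2 the median was 0.21. S100a8 and S100a9, the calcium-binding proteins of neutrophils, differed by 1.61 and 2.10. S100a9 read 7.13, 6.24, 8.74 and 8.80 in MatKO and 9.69, 11.05, 9.15 and 9.42 in PatKO hearts. PatKO heart 2 was the highest here and for the stefins Stfa1 (12.05) and Cstdc4 (9.86), whose near-identical family members may share a probe. Macrophage genes had a median of 0.16, with 13 of 18 higher and only Lyve1 at an unadjusted p under 0.05, and with 1 heart left out the median ran from 0.02 (without PatKO heart 2) to 0.31 (without PatKO heart 4).

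Liver plasma proteins had the widest differences of the lists, and they varied widely within each genotype. All 24 genes were higher on average in PatKO hearts, with a median of 1.61 (1.05 without PatKO heart 1), 11 at an unadjusted p under 0.05 and 2 without overlap (Hnf4a at 0.69 and Fgb at 0.19). Apoa2, an apolipoprotein, read 5.63, 9.40 and 7.95 in MatKO hearts 1, 3 and 4, less in heart 2, and 11.80, 10.13, 7.04 and 11.34 in PatKO hearts. The list mean was 5.80, 5.76, 7.86 and 7.37 in MatKO and 9.17, 8.43, 5.85 and 8.93 in PatKO hearts. PatKO heart 3 was thus at the level of the WT hearts (5.84 to 6.18), MatKO hearts 3 and 4 were higher, and the KO heart was highest at 9.81. Without PatKO heart 3 the difference of the list means was 2.15, against 1.40 with it. Whether liver tissue was carried along in dissection was not tested. Serpina1c and Serpina1e belong to a family of near-identical genes and are not read singly.

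**Figure D4:**
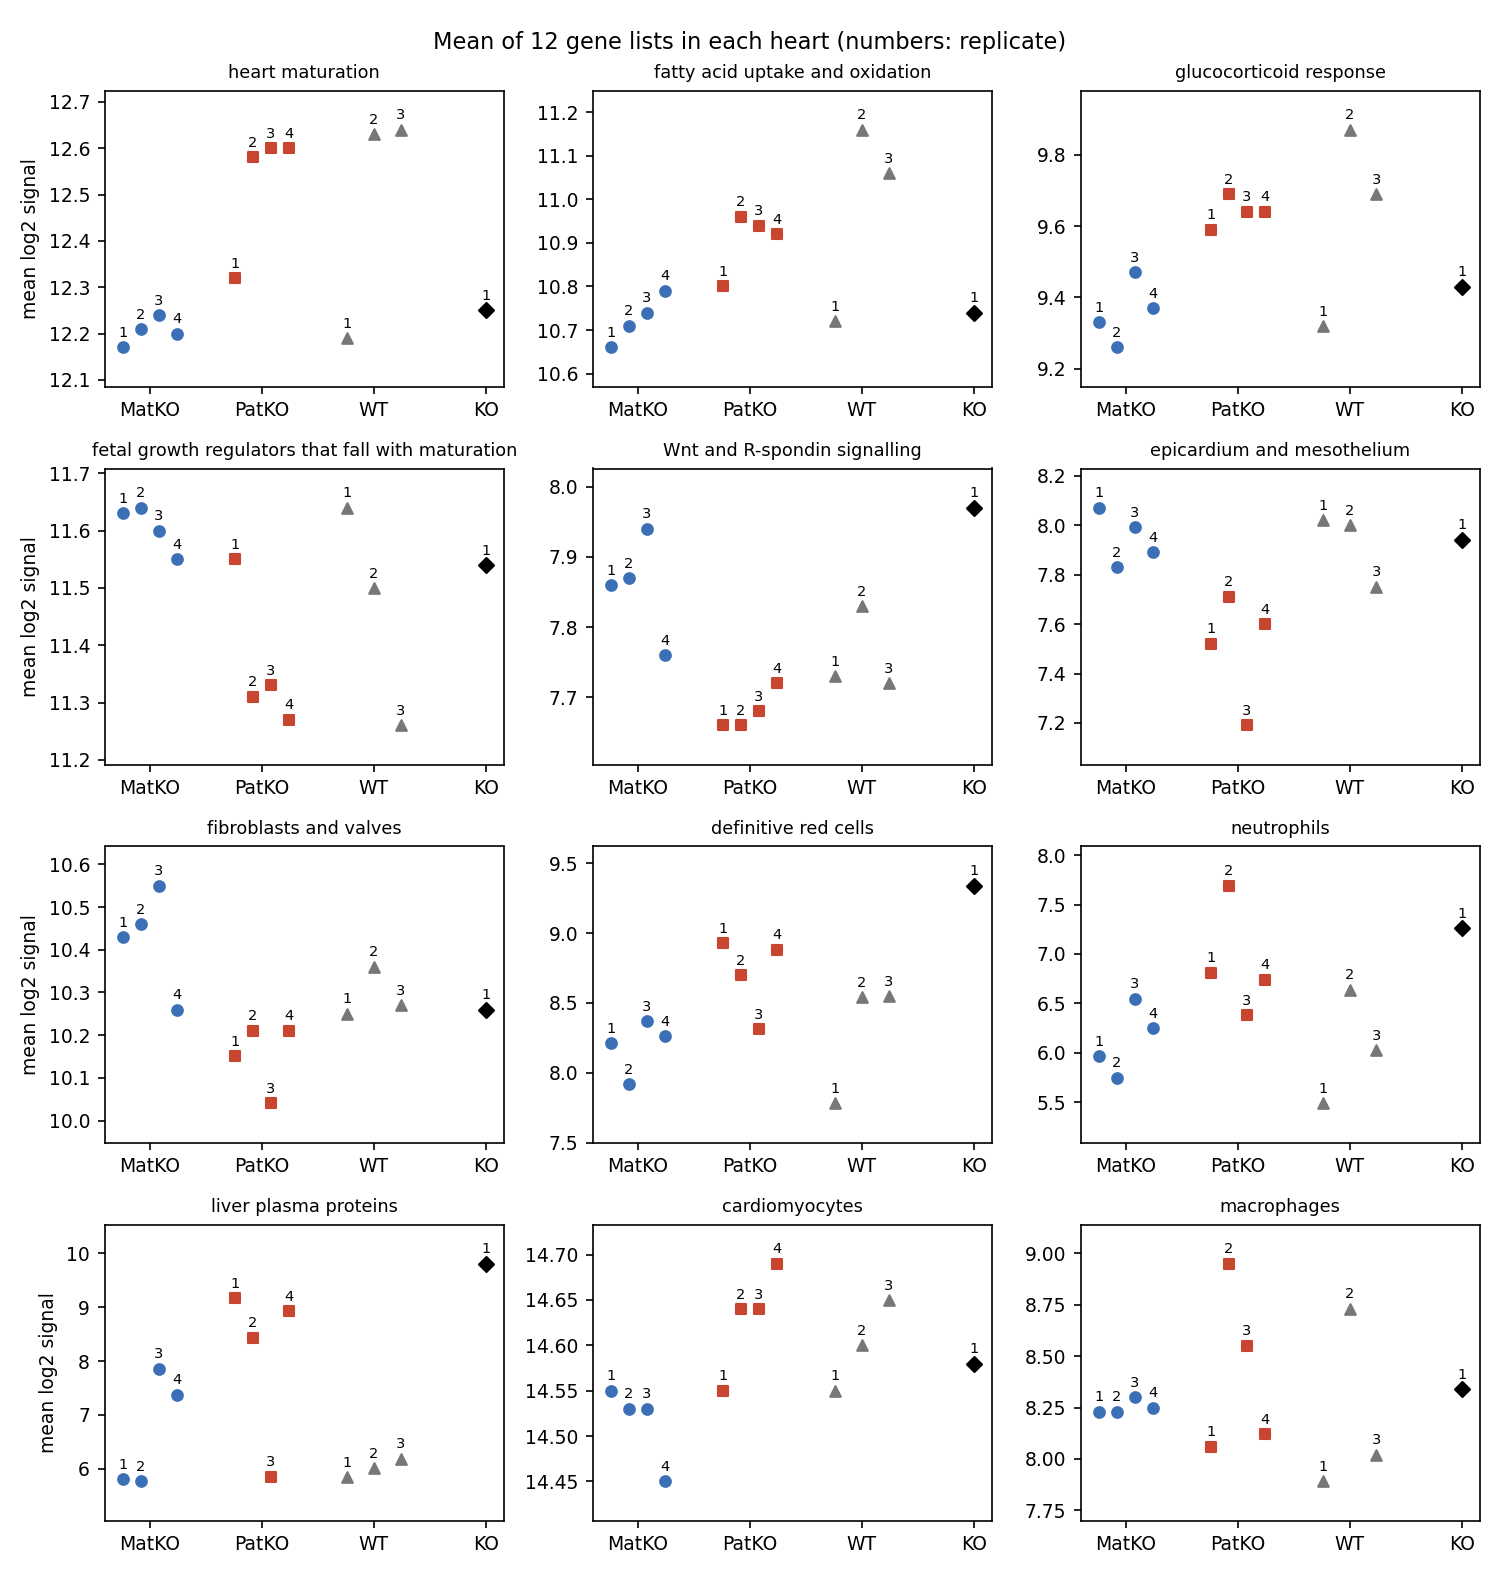
Mean log2 signal (vertical axis, each panel on its own scale) of 12 gene lists in each heart, by genotype, with the replicate number above each point. Heart maturation lies at 12.17 to 12.24 in MatKO and 12.32 to 12.60 in PatKO hearts, whereas liver plasma proteins overlap, with PatKO heart 3 at 5.85.

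Other genes of the monoamine pathway were near level between the groups. Without Ddc, 9 of 17 enzymes and transporters of monoamine synthesis and breakdown were higher, with a median of 0.01, and 0 passed an unadjusted p under 0.05 or were free of overlap. The nearest were Gch1, which makes the cofactor of the hydroxylases upstream of Ddc (0.30, standard error 0.15), and the vesicle transporter Slc18a2 (-0.44, standard error 0.23). Slc18a2 read 7.39, 6.96, 7.46 and 7.86 in MatKO and 7.42, 7.18, 6.42 and 6.89 in PatKO hearts, so the groups overlapped. Of 13 receptors for monoamines 10 were higher (median 0.16, between 0.05 without PatKO heart 3 and 0.25 without MatKO heart 2). All 13 were dim, with means under 7. The ones with an unadjusted p under 0.05 were Drd1 (0.27), Htr2a (0.35) and Htr4 (0.31). Other probes did not show these rises, since Htr2a differed there by -0.03 or less in size and Htr4 by -0.10.

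Genes beside Ddc on chromosome 11 and imprinted genes elsewhere gave few differences. Of 8 neighbours 6 were higher (median 0.13). With Ddc included the median was 0.11, and it ran from -0.02 to 0.18 with 1 heart left out, without PatKO heart 2 and MatKO heart 3 respectively. Among the 8 only Ikzf1, a transcription factor of blood cells, had an unadjusted p under 0.05 (0.65, overlapping). It read 6.07, 6.19, 7.15 and 6.07 in MatKO and 7.13, 7.38, 6.53 and 7.04 in PatKO hearts, and it was highest in the KO heart (7.82). Of 42 imprinted genes other than Ddc 17 were higher (median -0.03), with 1 above and 4 below without overlap. The lower ones were Mkrn3, expressed from the paternal allele, at -0.52, Nnat at -0.82, Ndn at -0.21 and Cdkn1c, and the higher one was Commd1 at 0.13 (-0.01 at its other probe). Mkrn3 read 9.65, 9.63, 9.28 and 9.53 in MatKO and 9.10, 9.05, 8.64 and 9.22 in PatKO hearts, with a gap of 0.06. Dlk1, a paternally expressed growth regulator, was higher by 0.36 with overlap.

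The WT and KO hearts, which are not part of the contrast, were then placed against the 2 ranges. Apart from Ddc, 174 genes with a mean of 7 or more passed the study's criterion and had ranges that did not overlap, 70 higher and 104 lower in PatKO hearts out of 9298 (0.753% and, with Ddc, 1.13%). The WT hearts had Ddc at or near the MatKO level and the KO heart had less than any PatKO heart. Of the 174, WT heart 1 read at or beyond the nearest MatKO heart for 101, WT heart 2 for 64 and WT heart 3 for 25. WT heart 3 instead read at or beyond the nearest PatKO heart for 122 (70.1%). The KO heart read at or beyond the nearest MatKO heart for 76 (43.7%) and at or beyond the nearest PatKO heart for 49 (28.2%). The same count over all 730 genes with this mean and without overlap besides Ddc (3.53% higher and 4.33% lower with Ddc included) gave 515 for WT heart 3 on the PatKO side and 368 for the KO heart on the MatKO side. The 3 WT hearts were thus placed differently from one another, and the heart without an intact Ddc allele was placed more often with MatKO than with PatKO. No test was made of these counts, since the genes share hearts and there was 1 KO heart.

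**Figure D5:**
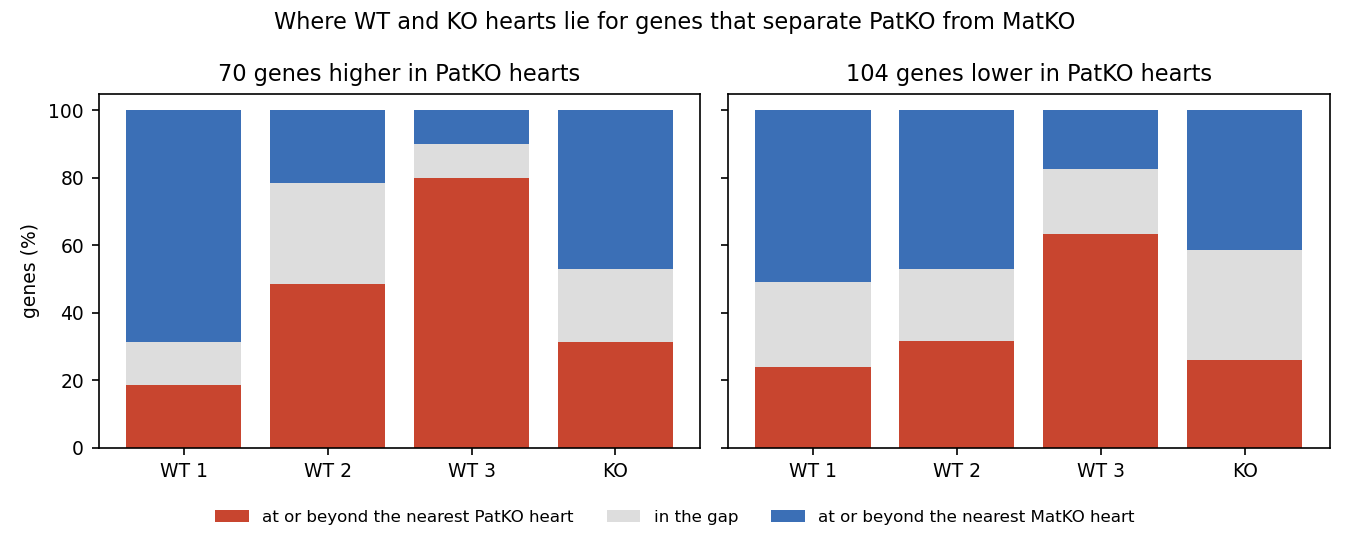
Share of genes (vertical axis, percent) for which each WT heart and the KO heart lies at or beyond the nearest PatKO heart, in the gap, or at or beyond the nearest MatKO heart, for the 70 genes higher and the 104 lower in PatKO hearts. WT heart 3 lies on the PatKO side for 56 of the 70 and 66 of the 104, and the KO heart for 22 and 27 of them.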

How the data were processed

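The deposited values were log2 signals that the authors had corrected for background with neqc and normalized between arrays, with GenomeStudio and limma named in the submitters' processing notes. The methods name Affymetrix arrays, whereas the probe names are Illumina's. A scanner table of 24 columns was left out because no label ties its columns to hearts. Each of 45267 probes entered a linear model of the 4 genotypes on the 12 arrays, with limma 3.58.1 (R 4.3.3; lmFit, then eBayes), and PatKO minus MatKO was tested with Benjamini-Hochberg adjustment over all probes at 0.05. The fit was tested on simulated data. Probes with 1 symbol in the platform annotation (34875) were named, and the brightest probe of each gene was read. Lists were described by counts and medians, with no set test. The genes named are Ddc, genes past the adjusted threshold, the 12 largest differences each way (mean of 7 or more, past the criterion, ranges apart), the 6 widest gaps and up to 5 members of each of 40 lists, and, chosen after their values were seen, list members whose ranges did not overlap. Members and lists were chosen with earlier results of these data known. Arrays have no sequencing depth, and their number limits the precision. P-values set each difference against the spread between hearts of the same genotype, which limma pools over the 12 arrays and moderates across probes. Slides and litters were not given in the sources used here. Alternatives were a replicate block, fewer arrays, other variances and weights, covariates, cyclic loess, 100 added to signals, dim probes left out, all probes of a gene and each heart left out. A covariate of the first principal component was chosen after seeing the data.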

Additional observations from a re-analysis of the deposited data

Results flagged for a closer look

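In 10 of 152 groups of 4 hearts, 1 heart stood apart from the other 3, where chance alone marks about 1 group in 20. The measure is the gap to the nearest heart as a share of the range of the group. In PatKO hearts the share was 0.920 for Cstdc4, where heart 2 read 9.86 and the others 8.29 to 8.42. It was 0.945 for Ube2l6 and 0.842 for Adhfe1, where heart 1 was low at 9.91 and 9.05. It was 0.844 for Moxd1, with heart 2 at 8.31, and 0.926 for Panx1, with heart 3 at 8.11. In MatKO hearts heart 3 was high for Scara5 (9.09, share 0.866) and Ikzf1 (7.15, share 0.889).

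Among list means, heart maturation had a share of 0.929 in PatKO hearts, where heart 1 read 12.32 and the others 12.58 to 12.60. The Hippo list had 0.857 in MatKO hearts, with heart 4 at 8.96 against 9.08 to 9.10. The monoamine enzymes and transporters, Ddc included, had 0.833 in PatKO hearts, with heart 3 at 7.60 against 7.65 to 7.66.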

How the results depend on the processing

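Ddc kept its direction and its call at all 3 probes in every alternative fit. With 1 heart left out its differences ranged from -5.26 to -4.88, -3.44 to -3.24 and -3.81 to -3.59. The count past an adjusted p of 0.05 ranged from 3 to 7 with 1 heart left out, and it was 7 without MatKO heart 3 and without PatKO heart 1. Past the study's criterion it ranged from 179 to 408 probes higher and from 258 to 443 lower, with 179 without MatKO heart 1. Probes without overlap ranged from 975 to 2054 higher and from 1174 to 2122 lower, as fewer hearts overlap less. Adding 100 to the linear signals left 114 higher and 163 lower past the criterion. Without dim probes these counts were 159 and 207, and 544 and 662 were free of overlap, since fewer probes are tested.

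The replicate number does not pair the hearts (correlations of deviations from -0.35 to -0.21), and with a replicate block over the 8 hearts 351 probes were higher and 405 lower past the criterion, with 3 past the adjusted threshold. The first principal component as a covariate gave 376 and 446. Cyp17a1, with a mean under 7, passed the adjusted threshold with only the 8 arrays, and a probe named for Serpina1c, of a near-identical family, without PatKO heart 3. Of 187 named genes besides Ddc, Eif2s3y turned to -0.24 with Xist as a covariate and Fas to -0.04 with the red cell mean; the causes were not tested. Of the lists with a median of 0.1 or more in size, 6 of 528 medians changed sign, in the neighbours of Ddc, the sex transcripts and the red cell list under its own covariate. Signals near the lowest array value limit the size of dim differences.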

Other observations

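A few genes read very differently between hearts of the same genotype. Pam, which amidates peptides, read 10.29 and 11.53 in MatKO hearts 1 and 2, 7.99 or lower in MatKO hearts 3 and 4, and 10.78, 11.03, 11.46 and 9.60 in PatKO hearts. Hbb-b2, an adult beta globin with a near-identical neighbour, read 13.23, 9.25, 10.72 and 13.30 in MatKO hearts and 10.42 to 11.63 in PatKO hearts. Isl1, a transcription factor of cardiac progenitors and neurons, read 5.42 to 7.29 in PatKO and 6.09 to 7.56 in MatKO hearts. For these 3 genes the ranges overlapped.

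Neuronal genes gave 10 of 18 higher in PatKO hearts, with a median of 0.02 and 14 dim. Stmn2, a tubulin-binding protein of neurons, read 6.80, 7.66, 6.88 and 6.86 in MatKO, 7.75, 7.83, 7.48 and 8.53 in PatKO and 9.68 in the KO heart. Sox10, of the neural crest, differed by 0.41 at values near the lowest on the arrays.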
